A study of Mus musculus with 6 samples.

Results

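The genes described here move iron out of cells, store it, take it up and recover it from haem. They were Slc40a1, Cp, Fth1, Ftl1, Tfrc, Slc11a2, Slc11a1, Hmox1, Blvrb and Spic, 10 of the 55291 gene symbols in the count table, and all 10 passed the filter on low counts. The set was chosen by function and partly by the measured difference of Slc40a1 between the genotypes, so for these 10 genes the comparison of genotypes is given as a description. No p is given for any of them. A count of those past the threshold over all genes stands beside the background, and again among the alternative settings. Nothing is read from it. The study grew CT2A, a glioma line of the mouse, under the skin, and compared tumours of Siglece knockout (KO) mice, 3 libraries, with tumours of wild-type (WT) mice, 3 libraries, by bulk RNA sequencing (Smart-seq2, which does not mark strand). All 6 libraries came from the same tumour line, and the labels used here state no treatment, age, sex, strain or way of making the knockout. Siglece encodes a sialic acid receptor of myeloid cells. It had 0, 8 and 0 counts in the KO libraries, against 74, 99 and 64 counts in the WT libraries.

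Iron enters cells bound to transferrin through the transferrin receptor, is held inside the ferritin shell, and leaves through ferroportin, the only known iron exporter of mammals. Macrophages recycle the iron of old red cells: they take up haem, open its ring with haem oxygenase, and either store the iron or export it. When iron is short, iron regulatory proteins bind a small hairpin in messenger RNA, the iron-responsive element. Bound near the start of a message it blocks translation, and bound near the end it protects the message from decay, so these genes are controlled in part after transcription, which read counts of ferritin or ferroportin RNA do not measure.

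The hairpin was looked for in the sense strand of all annotated transcripts (GENCODE M21, GRCm38, the build of the count table), because it is the sequence that members of the set share. The search asked for a C, 5 bases, the loop CAGTGN with its last base not G, and 5 bases that pair with the first 5, G with T counted as a pair. It was found in 3 members in the 5′ UTR and in 1 member, Tfrc, at 4 places in the 3′ UTR; the other 6 members held no match. Of 22500 coding genes, 23 (0.102%) held a match in a 5′ UTR and 110 (0.489%) in a 3′ UTR. The matches are shown 5′ to 3′ on the sense strand with the loop in capitals.
Slc40a1, 5′ UTR, chr1:45925465-45925493, minus strand: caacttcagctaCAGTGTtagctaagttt
Fth1, 5′ UTR, chr19:9982732-9982760, plus strand: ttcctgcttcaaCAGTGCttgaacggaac
Ftl1, 5′ UTR, chr7:45459779-45459807, minus strand: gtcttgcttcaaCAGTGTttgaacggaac
Tfrc, 3′ UTR, chr16:32631219-32631247, plus strand: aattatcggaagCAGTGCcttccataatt
Tfrc, 3′ UTR, chr16:32631598-32631626, plus strand: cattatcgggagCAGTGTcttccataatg
Tfrc, 3′ UTR, chr16:32631663-32631691, plus strand: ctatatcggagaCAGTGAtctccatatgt
Tfrc, 3′ UTR, chr16:32631710-32631738, plus strand: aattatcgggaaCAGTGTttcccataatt
The elements of the 2 ferritin genes had the same base at 26 of their 29 positions. A match is a description of these letters, and a missing match says nothing about how the other members are controlled.

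The libraries held 24369359 to 40574093 counts, and 3 counts, the limit that a count of 0 allows, stood for 0.0820 to 0.150 CPM (counts scaled to the TMM-adjusted library size). KO replicate 2 and WT replicate 1 stood apart from their groups in the macrophage sums given next, and an alternative fit leaves both out. No label marks this pair, and KO replicate 3 stood apart in the muscle, adipocyte and erythroid sums. Where a gene was lowest in KO replicate 2 within KO and highest in WT replicate 1 within WT, leaving both out widens its difference by construction. The summed level of 10 macrophage markers (Csf1r, C1qa, Adgre1 and others) was 12272, 3447 and 14146 CPM in KO libraries. In WT libraries it was 2428, 1515 and 1521 CPM. The groups did not overlap, and 9 of the 10 markers were called higher in KO. Over all genes tested by edgeR, 11.2% were called higher in KO and 0.226% lower, beside which the calls in each marker list stand. All 5 fibroblast markers and all 5 endothelial markers were also called higher in KO, with sums of 8173 to 25968 CPM in KO libraries against 1501 to 2508 CPM in WT libraries, and of 241 to 779.6 CPM in KO libraries against 47.1 to 72.7 CPM in WT libraries. The 8 glial and glioma markers, 1 of them called lower, summed to 90.2, 572 and 50.5 CPM in KO libraries, against 793, 784 and 790 CPM in WT libraries. Their sum was thus low in KO replicates 1 and 3. Nes, Sox2 and Olig2 made up most of the WT sums. Aldh1l1 had a higher mean in KO, with 22.5, 9.37 and 3.29 CPM in KO libraries, against 8.31, 4.27 and 5.18 CPM in WT libraries. Other lists moved as well. The 4 skeletal muscle markers, all called higher in KO, summed to 754, 243 and 1873 CPM in KO libraries, against 167, 83.0 and 66.7 CPM in WT libraries. The 5 adipocyte markers, 1 of them called, summed to 98.4, 42.5 and 844 CPM in KO libraries, against 25.5, 12.5 and 10.4 CPM in WT libraries, and the 5 T cell markers, 4 of them called, to 113 to 364 CPM in KO libraries against 40.3 to 81.1 CPM in WT libraries. The 5 proliferation markers, 0 of them called by edgeR, summed to 266, 791 and 123.4 CPM in KO libraries, against 1346, 1102 and 1203 CPM in WT libraries. KO replicate 3 had the highest muscle and adipocyte sums. In bulk tumour RNA, more cells of a type and more RNA per cell cannot be told apart, and the part of these shifts in the values of the iron genes was not tested.

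**Figure D1:**
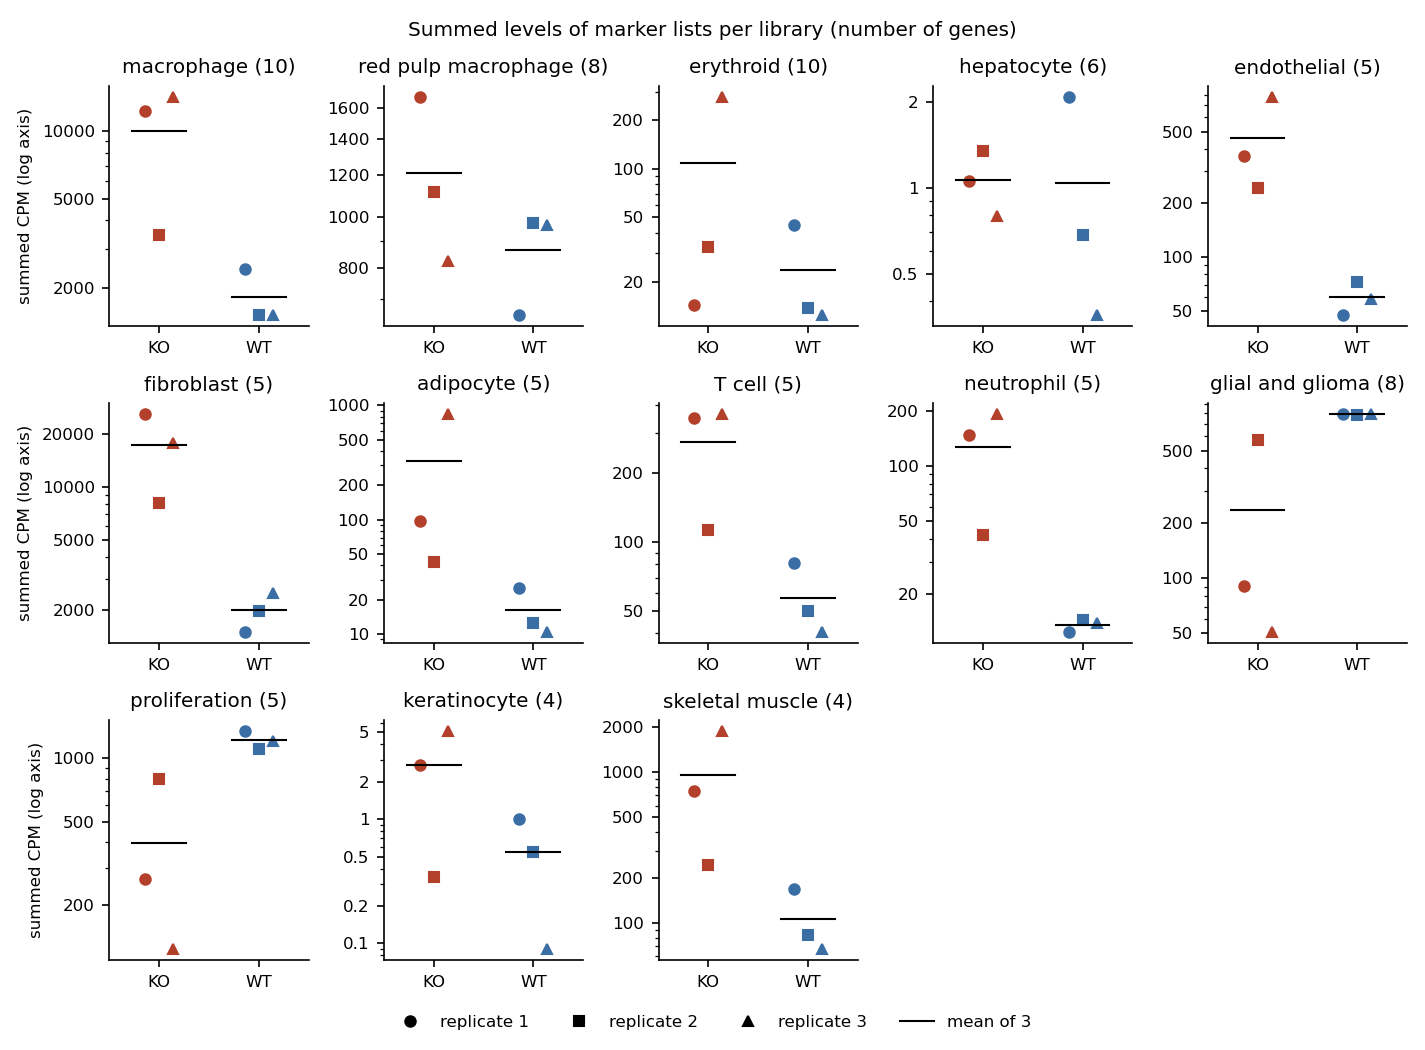
Summed TMM-scaled CPM of marker lists in each library (log axis), KO left of WT, with one symbol per replicate and a line at the group mean. Macrophage, fibroblast and endothelial sums do not overlap between the groups, and KO replicate 2 has the lowest of the KO macrophage sums at 3447 CPM, against 2428 CPM in the highest WT library.

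The exporter had the widest difference of the 10 genes, a difference that was itself used in choosing the set. Slc40a1 encodes ferroportin (ENSMUSG00000025993.10, chromosome 1, 45908068 to 45926523, minus strand). It had 43.1, 5.90 and 46.9 CPM in KO libraries, from 1268, 207 and 941 counts, against 0.301, 0.399 and 0.833 CPM in WT libraries, from 11, 14 and 28 counts. Every KO library lay above every WT library, and within KO the second replicate was far below the others. The mean was 32.0 ± 22.7 CPM in the KO group and 0.511 ± 0.283 CPM in the WT group (SD, n = 3 each), 62.6-fold apart, and the fitted log2 fold change was 5.96 (SE 0.89). Without KO replicate 2 and WT replicate 1 it was 6.17.

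Cp encodes ceruloplasmin, a copper ferroxidase that oxidises iron as it leaves through ferroportin (ENSMUSG00000003617.16, chromosome 3, 19957054 to 20009145, plus strand). It had 82.6, 38.9 and 26.4 CPM in KO libraries, against 15.6, 17.4 and 21.2 CPM in WT libraries. The groups did not overlap, but the lowest KO library was close to the highest WT library. Cp averaged 49.3 ± 29.5 CPM in KO and 18.1 ± 2.82 CPM in WT, with a log2 fold change of 1.45 (SE 0.43), which was 0.81 without KO replicate 1. Its exons share 540 bases with Hps3 on the other strand, and reads in that stretch cannot be assigned to one gene without strand. The order of the KO libraries differed between the exporter and its ferroxidase: Slc40a1 was lowest in KO replicate 2 and Cp in KO replicate 3. In scaled CPM, Slc40a1 was highest in KO replicate 3, at 46.9 against 43.1 in KO replicate 1. As a share of all counts it was highest in KO replicate 1, at 0.00413% against 0.00386% in KO replicate 3.

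Iron storage was carried by 2 of the most abundant messages of the tumours. Fth1, the ferritin heavy chain with ferroxidase activity (ENSMUSG00000024661.7, chromosome 19, 9980598 to 9985098, plus strand), had 3764, 1295 and 7705 CPM in KO libraries, against 1592, 696 and 684 CPM in WT libraries. Ftl1, the light chain that helps the iron core form (ENSMUSG00000050708.16, chromosome 7, 45457944 to 45459884, minus strand), had 5889, 1903 and 12509 CPM in KO libraries, against 2017, 1096 and 1001 CPM in WT libraries. For both chains the groups overlapped, because WT replicate 1 was above KO replicate 2. The log2 fold changes were 2.10 (SE 0.72) for Fth1 and 2.30 (SE 0.73) for Ftl1. Without KO replicate 2 and WT replicate 1 they were 3.04 for Fth1 and 3.12 for Ftl1, while without KO replicate 3, the highest library for both chains, they were 1.32 for Fth1 and 1.48 for Ftl1.

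The chains kept a narrow ratio while their level varied. Per length of merged exon, Fth1 over Ftl1 was 0.247, 0.263 and 0.238 in KO libraries, against 0.305, 0.245 and 0.264 in WT libraries, and the groups overlapped. The size of this ratio depends on the lengths used, 3469 bases for Fth1 and 1340 bases for Ftl1. The comparison between libraries does not. Together the chains took 0.924%, 0.349% and 1.66% of all counts in KO libraries, against 0.326%, 0.202% and 0.191% in WT libraries. Ranked per length among the tested genes, Ftl1 stood at places 5, 10 and 4 in KO libraries, against places 34, 25 and 27 in WT libraries. Ferritin has many processed copies in the mouse genome: 14 annotated copies together held 0.424% to 0.544% as many counts as the 2 genes in every library, and 8 of them had no count. The exons of Ftl1 share 787 bases with Gm10252 on the other strand, which was given 65266 counts over all libraries, against 636728 for Ftl1.

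**Figure D2:**
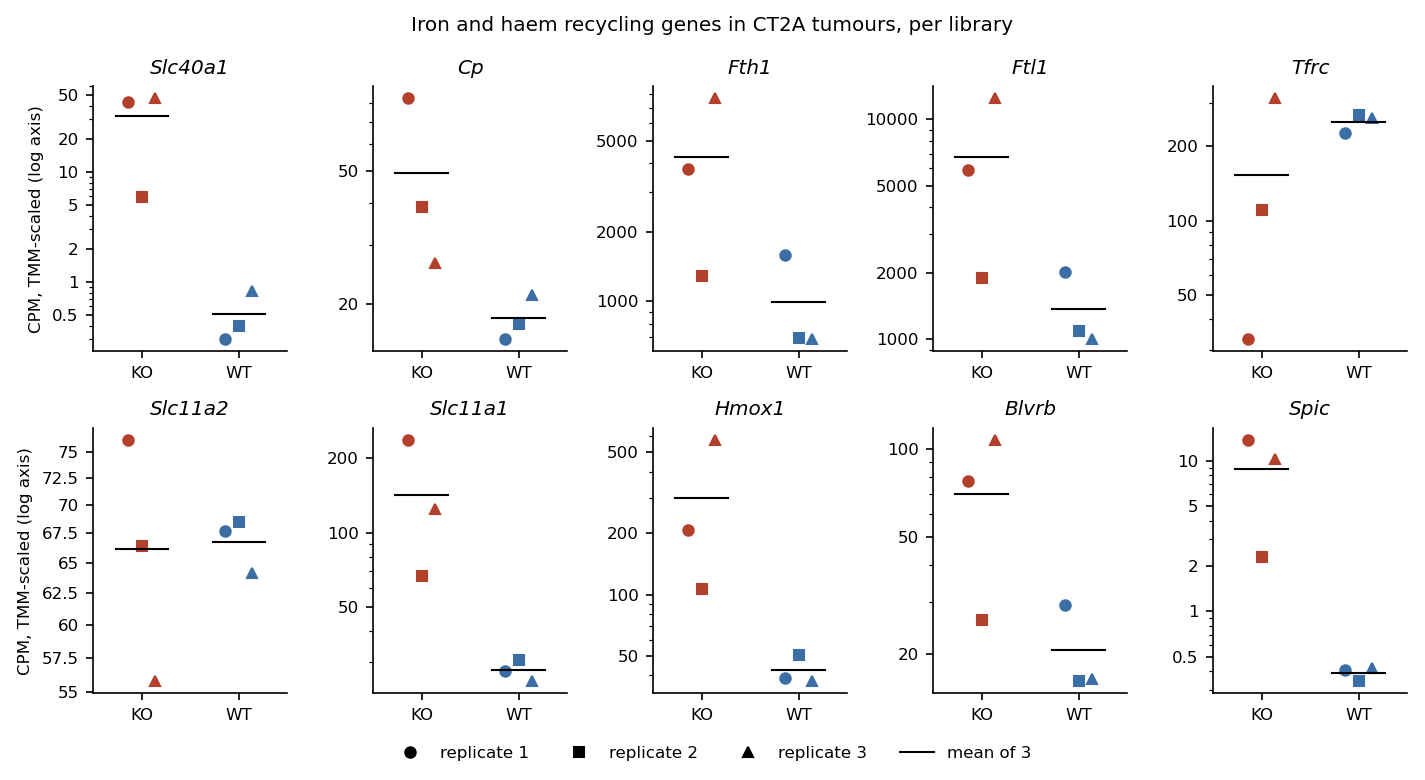
TMM-scaled CPM of the 10 iron and haem genes in each library (log axes that differ between panels), KO left of WT, with one symbol per replicate and a line at the group mean. Slc40a1, Cp, Slc11a1, Hmox1 and Spic do not overlap between the groups, and Slc11a2 has nearly the same mean in both (66.1 CPM in KO, 66.8 CPM in WT).

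Of the uptake genes, the phagosomal transporter was higher in every KO library, and the receptor and the general transporter overlapped between the groups. Tfrc, the transferrin receptor (ENSMUSG00000022797.16, chromosome 16, 32608920 to 32632794, plus strand), had 33.1, 111 and 314 CPM in KO libraries, against 226, 269 and 261 CPM in WT libraries. KO replicates 1 and 2 lay below all WT libraries and KO replicate 3 lay above them, so the groups overlapped. As a share of all counts, KO replicate 3 (0.0258%) lay above WT replicate 1 (0.0204%) only, and the groups overlapped too. The WT libraries were close together at 252 ± 22.9 CPM, while the KO mean was 152.5 ± 145 CPM, with a log2 fold change of -0.72 (SE 0.68). Without KO replicate 3 the log2 fold change of Tfrc was -1.83, so that library decided its size.

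Slc11a2 encodes DMT1, which carries ferrous iron across the gut surface and out of endosomes (ENSMUSG00000023030.16, chromosome 15, 100387898 to 100425072, minus strand). It had 76.1, 66.5 and 55.8 CPM in KO libraries, against 67.7, 68.5 and 64.2 CPM in WT libraries. The groups overlapped around one level, with a log2 fold change of -0.01 (SE 0.24), whose sign changed in 3 of the 15 other settings tried. Its paralogue Slc11a1 encodes NRAMP1, the metal transporter of phagosomes that restricts microbial growth (ENSMUSG00000026177.11, chromosome 1, 74375195 to 74386062, plus strand). Slc11a1 had 236, 66.6 and 125 CPM in KO libraries, against 27.7, 30.7 and 25.1 CPM in WT libraries, and every KO library lay above every WT library. Its log2 fold change was 2.35 (SE 0.46), and 1.72 without KO replicate 1. Per length, Slc11a1 over Slc11a2 was 5.32, 1.72 and 3.83 in KO libraries, against 0.702, 0.769 and 0.672 in WT libraries, so the phagosomal paralogue was the more abundant in all KO libraries and the less abundant in all WT libraries.

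Both enzymes of haem breakdown had higher means in KO, Hmox1 without overlap of the groups and Blvrb with overlap. Hmox1, haem oxygenase 1, which opens the haem ring and frees its iron (ENSMUSG00000005413.8, chromosome 8, 75093621 to 75100589, plus strand), had 209, 107 and 575 CPM in KO libraries, against 39.1, 50.6 and 37.4 CPM in WT libraries. Every KO library lay above every WT library, and the KO libraries themselves spread widely. Hmox1 averaged 297 ± 246 CPM in KO and 42.4 ± 7.17 CPM in WT, with a log2 fold change of 2.81 (SE 0.61). Without KO replicate 3 it was 1.87.

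Blvrb, biliverdin reductase B, which reduces a biliverdin isomer and flavins (ENSMUSG00000040466.16, chromosome 7, 27447978 to 27466144, plus strand), had 77.8, 26.1 and 107 CPM in KO libraries, against 29.4, 16.1 and 16.4 CPM in WT libraries. WT replicate 1 was above KO replicate 2, and the groups overlapped, with a log2 fold change of 1.77 (SE 0.52), which was 2.49 without those 2 libraries. Blvrb over Hmox1 per length averaged -2.63 ± 0.51 in KO and -1.75 ± 0.63 in WT on the log2 scale, a difference of -0.88 with overlapping groups. Spic encodes the transcription factor that drives the formation of splenic red pulp macrophages, which recycle red cells, and which haem induces in mouse (ENSMUSG00000004359.16, chromosome 10, 88674772 to 88685015, minus strand). Spic had 13.7, 2.28 and 10.3 CPM in KO libraries, from 404, 80 and 207 counts, against 0.410, 0.342 and 0.417 CPM in WT libraries, from 15, 12 and 14 counts. The groups did not overlap, and Spic had a log2 fold change of 4.48 (SE 0.73), which was 4.96 without KO replicate 2 and WT replicate 1.

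Signs of red cells and of red pulp macrophages were measured beside these genes. The 10 erythroid markers summed to 14.3, 32.6 and 279 CPM in KO libraries, against 44.8, 13.7 and 12.3 CPM in WT libraries, with 0 of the 7 tested markers past the threshold of edgeR's test and Slc4a1, the anion exchanger of the red cell membrane, at 0 counts in the KO libraries, against 0, 0 and 2 counts in the WT libraries. The highest sum was in KO replicate 3, which also had the highest Hmox1, Fth1, Ftl1 and Blvrb, as well as the highest muscle and adipocyte sums. Slc40a1 and Tfrc were highest there in scaled CPM, but not as a share of all counts. The part of red cell, muscle or fat RNA in those values was not tested. Of the 8 red pulp macrophage markers, 3 of 7 tested were called higher in KO, against 11.2% of all tested genes. In 5 of the 7 every KO library lay above every WT library, as in 24.6% of all tested genes. Their sums overlapped, at 1682, 1112 and 826 CPM in KO libraries against 651, 973 and 966 CPM in WT libraries. Most of the WT sums came from Axl, a receptor for dying cells named after its values were seen, which had 686, 828 and 225 CPM in KO libraries, against 576, 832 and 840 CPM in WT libraries. Hepatocytes make much of the body's ceruloplasmin and hepcidin, and 4 of 6 hepatocyte markers (Ttr, Serpina1a, Fgb and Ahsg) were at 0 in all libraries.

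Counted together, 4 of the 10 genes had an adjusted p under 0.05 and were higher in KO by edgeR's quasi-likelihood test over all genes (Slc40a1, Slc11a1, Hmox1 and Spic), where 11.2% of the 18621 tested genes were called higher. None of the 10 was called lower, where 0.226% of tested genes were. In 5 genes every KO library lay above every WT library, as in 24.6% of tested genes, and in none did every KO library lie below, as in 19.5% of tested genes. The median log2 fold change was 2.20 over the 10 genes and -0.05 over all tested genes. The contrast was used to choose the set, so nothing is read from these counts.

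Levels per kilobase of exon set the genes in order within a genotype. In KO libraries Ftl1 was highest at 5050 CPM per kilobase, then Fth1 at 1226, Hmox1 at 170, Slc11a1 at 38.5, Blvrb at 25.3, Tfrc at 24.7, Slc11a2 at 10.4, Cp at 5.15, Slc40a1 at 3.55 and Spic at 2.29. In WT libraries the order was Ftl1 at 1023, Fth1 at 285.5, Tfrc at 40.7, Hmox1 at 24.2, Slc11a2 at 10.5, Slc11a1 at 7.52, Blvrb at 7.42, Cp at 1.89, Spic at 0.101 and Slc40a1 at 0.0568. Per kilobase of merged exon, Slc40a1 was therefore the lowest of the 10 genes in WT tumours and next to the lowest in KO tumours. Its fold difference, used in choosing the set, was nevertheless the widest. The merged exon length need not equal the length of the expressed message. In CPM, Spic was the lowest in both groups, at 0.389 in WT and 8.78 in KO, against 0.511 and 32.0 for Slc40a1. Tfrc was next after the ferritins per kilobase in WT libraries but came after Hmox1, Slc11a1 and Blvrb in KO libraries. Its KO values overlapped those of its neighbours Blvrb and Slc11a2, as did Hmox1 with Slc11a1, Slc11a1 with Blvrb, and Cp, Slc40a1 and Spic with each other in KO, and Slc11a1 with Blvrb and Spic with Slc40a1 in WT. The top of the order, Ftl1 then Fth1, was the same in all 6 libraries, per kilobase and in CPM. Its wide spacing depended on the merged exon lengths, 1340 bases for Ftl1 and 3469 bases for Fth1. In CPM the means were closer, at 6767 for Ftl1 and 4254 for Fth1 in KO. They were 1371 for Ftl1 and 990.5 for Fth1 in WT.

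The ratio of the receptor to the store was lower in every KO library than in any WT library, though each gene alone overlapped. In scaled CPM both genes were highest in KO replicate 3. Their log2 fold changes were -0.72 (SE 0.68) for Tfrc and 2.10 (SE 0.72) for Fth1. Per length, Tfrc over Fth1 was 0.00493, 0.0480 and 0.0228 in KO libraries, against 0.0796, 0.216 and 0.214 in WT libraries. All KO ratios lay below all WT ratios, and on the log2 scale they averaged -5.83 ± 1.68 in KO libraries and -2.69 ± 0.83 in WT libraries (SD, n = 3 each), a difference of -3.14. Both genes carry iron-responsive elements, at opposite ends of their messages. The macrophage and glioma marker sums also differed between the groups without overlap. Within KO, replicate 2 had the lowest macrophage sum, the highest glioma sum and the highest ratio. The order of the other KO libraries was not shared. The macrophage sum was highest and the glioma sum lowest in KO replicate 3, while the ratio was lowest in KO replicate 1. The part of these sums in the ratio was not tested.

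Across the 6 libraries the members fell into patterns of their own. Likeness was measured as the root mean square difference in log2 CPM after centring each gene, and of the 45 pairs Fth1 and Ftl1 were the closest at 0.117, followed by Fth1 and Blvrb at 0.261 and Ftl1 and Blvrb at 0.301. Slc40a1 was nearest to Spic among members, at 0.865, and Slc40a1 and Tfrc were the farthest pair at 3.63. Among 12663 other genes, those nearest to Slc40a1 were Iglv1 at 0.433, Ptn at 0.498, Dpt at 0.534, Adamts15 at 0.544 and Iglc1 at 0.545. Iglv1 and Iglc1 are antibody light chain segments, Ptn encodes the growth factor pleiotrophin and Dpt the matrix protein dermatopontin. Dpt, for example, had 189.6, 26.4 and 299 CPM in KO libraries, against 4.32, 2.88 and 3.60 CPM in WT libraries, with the same low second KO replicate. Those nearest to Hmox1 were Prrg3 at 0.162, Sema3g at 0.167, Entpd2 at 0.173, Klhl33 at 0.178 and Rasip1 at 0.184; Rasip1, a regulator of vessel formation, had 30.2, 18.3 and 86.3 CPM in KO libraries, against 8.01, 7.29 and 6.58 CPM in WT libraries.

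Because macrophage markers moved with the set, each member was also set against the summed macrophage markers of its own library, an alternative chosen after seeing the data for all but Slc40a1 and Hmox1. Per 1000 CPM of macrophage markers, Slc40a1 had 3.52, 1.71 and 3.32 CPM in KO libraries, against 0.124, 0.263 and 0.548 CPM in WT libraries. Spic had 1.12, 0.661 and 0.730 CPM in KO libraries, against 0.169, 0.226 and 0.274 CPM in WT libraries. Both stayed non-overlapping, with log2 differences of 3.38 for Slc40a1 and 1.90 for Spic. Over the fibroblast sum the differences were 2.63 and 1.15, and over the endothelial sum 2.81 and 1.34, again with every KO library above every WT library. The other 8 members had negative differences over both of those sums. Over the fibroblast sum Cp (-1.70), Slc11a1 (-0.82), Blvrb (-1.39), Tfrc (-4.25) and Slc11a2 (-3.02) were lower in every KO library, and over the endothelial sum the same was true of Cp (-1.52), Blvrb (-1.21), Tfrc (-4.07) and Slc11a2 (-2.83).

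Hmox1, on the same scale, had 17.0, 31.1 and 40.6 CPM in KO libraries, against 16.1, 33.4 and 24.6 CPM in WT libraries. Slc11a1 had 19.3, 19.3 and 8.81 CPM in KO libraries, against 11.4, 20.3 and 16.5 CPM in WT libraries. Both overlapped, with log2 differences of 0.23 for Hmox1 and -0.07 for Slc11a1, so their separation in CPM was not present per macrophage marker. Fth1, Ftl1 and Cp also overlapped, with log2 differences of -0.37, -0.25 and -0.95. Blvrb, with 6.34, 7.59 and 7.56 CPM in KO libraries against 12.1, 10.7 and 10.8 CPM in WT libraries, lay lower in every KO library, by a log2 difference of -0.65. Tfrc and Slc11a2 were lower in every KO library too, with log2 differences of -3.51 and -2.27, on a scale whose denominator was itself 5.47-fold higher in KO.

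**Figure D3:**
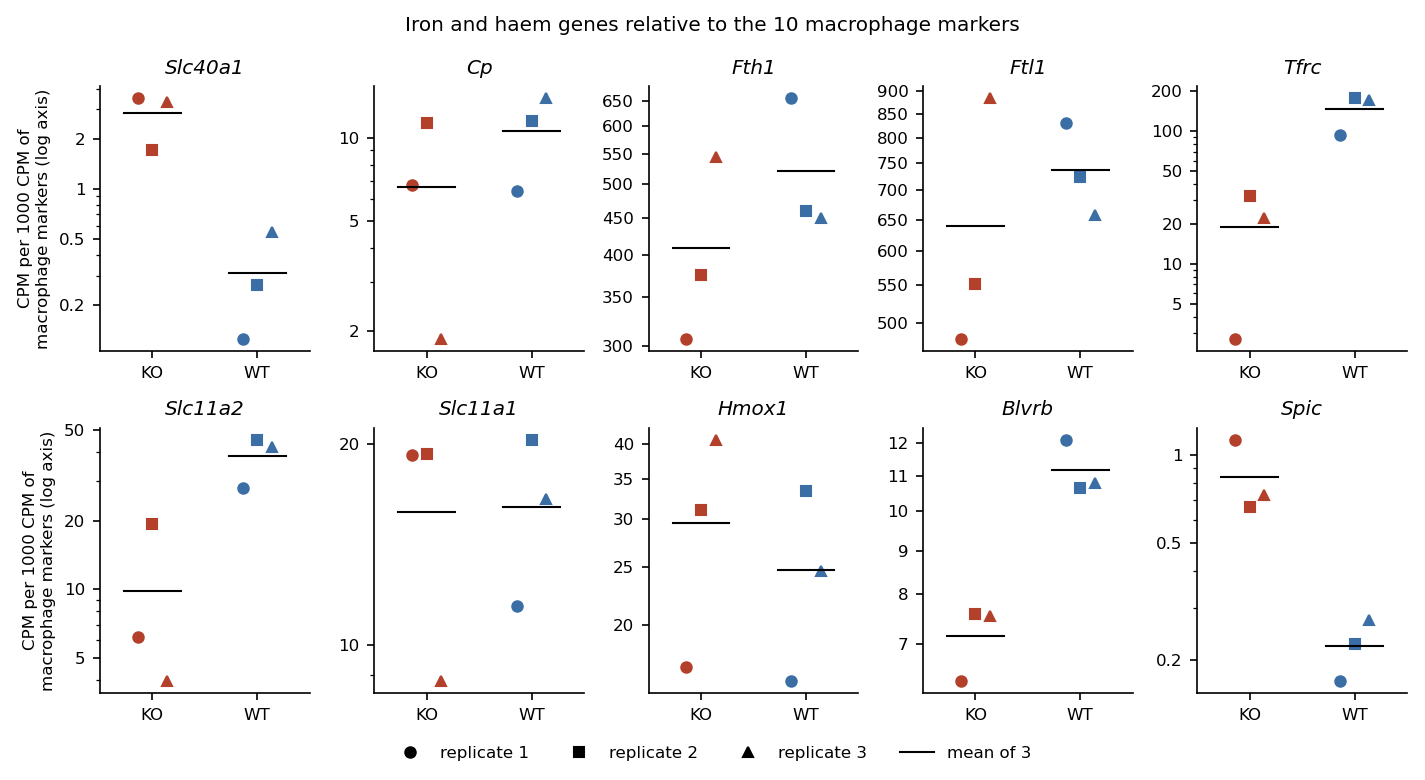
Level of each gene per 1000 CPM of the 10 macrophage markers in the same library (log axes that differ between panels), KO left of WT, with one symbol per replicate and a line at the group mean. Slc40a1 and Spic are higher in every KO library, Blvrb, Tfrc and Slc11a2 are lower, and Cp, Fth1, Ftl1, Slc11a1 and Hmox1 overlap.

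Beyond the set, 76 further genes of iron and haem metabolism in 7 lists were looked up in the fit over all genes, and 71 of them passed the filter on low counts. Of these, 9 rose in KO tumours by edgeR's quasi-likelihood test (adjusted p under 0.05, Benjamini-Hochberg) and 0 fell, with 4 lower at an unadjusted p under 0.05 and 2 lower by DESeq2. The 9 of 71 lay near the background of 11.2%. The counts per list given next split these 9 over short lists, and nothing is read from the split. The median log2 fold change was 0.25 over the 71 genes, against -0.05 over all tested genes. The count depended on single libraries. It was 0 without KO replicate 1, and also 0 without WT replicate 1, 2 or 3, 24 without KO replicate 2, and 2 without KO replicate 3, which left Steap4 and Lrp1.

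Of the 16 tested genes of iron uptake and transport, 1 rose and 0 fell, where 11.2% of all tested genes rose. Steap4, a metalloreductase that reduces ferric iron, had 35.2, 6.15 and 33.6 CPM in KO libraries, against 1.17, 1.05 and 0.952 CPM in WT libraries. Its log2 fold change was 4.55 (SE 0.69, adjusted p = 0.0246 by edgeR), and its low second KO replicate resembled that of Slc40a1. Steap3, the ferrireductase of endosomes, had a log2 fold change of 1.22 (edgeR adjusted p = 0.0608). Lcn2, which binds bacterial siderophores, had one of 4.29 (edgeR adjusted p = 0.0598), and neither passed. Lcn2 overlapped between the groups, with 0.612, 4.98 and 18.2 CPM in KO libraries, against 0.792, 0.228 and 0.179 CPM in WT libraries. Without KO replicate 3 its log2 fold change was 2.76.

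Of the 7 tested genes of export and its control by hepcidin, 3 rose and 0 fell, where 11.2% of all tested genes rose. All 3 are known as regulators of hepcidin in the liver. Hfe, the gene mutated in common hereditary haemochromatosis, had 91.7, 32.3 and 93.0 CPM in KO libraries, against 16.7, 16.2 and 11.4 CPM in WT libraries, with a log2 fold change of 2.29 (SE 0.44, adjusted p = 0.0250 by edgeR). Hjv, the co-receptor hemojuvelin, averaged 4.90 ± 3.20 CPM in KO and 0.443 ± 0.173 CPM in WT (log2 fold change 3.45, edgeR adjusted p = 0.0292). Hjv is also a gene of skeletal muscle. Its KO values of 5.54, 1.42 and 7.73 CPM had the order of the skeletal muscle sums, whose part in them was not tested. Bmp6, an endothelial ligand that signals iron stores to hepatocytes, averaged 3.03 ± 0.950 CPM in KO and 0.529 ± 0.222 CPM in WT (log2 fold change 2.51, edgeR adjusted p = 0.0336). Hamp, which encodes hepcidin itself, had 2, 0 and 0 counts in KO libraries, against 0, 0 and 1 counts in WT libraries, and was not detectable at this depth. Heph, a ferroxidase related to ceruloplasmin, had a log2 fold change of 1.92 and did not pass (adjusted p = 0.126). Tmprss6, a protease that lowers hepcidin, and Erfe, the erythroid hormone that lowers it, were named after their values were seen. Tmprss6 had 1.26, 3.13 and 0.648 CPM in KO libraries, against 5.98, 3.62 and 4.34 CPM in WT libraries (log2 fold change -1.46, edgeR adjusted p = 0.157). Erfe had 0.918, 4.19 and 0.349 CPM in KO libraries, against 6.53, 6.10 and 5.83 CPM in WT libraries (log2 fold change -1.74, edgeR adjusted p = 0.178). Neither passed. For both, all KO libraries lay below all WT libraries, as in 19.5% of all tested genes.

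Of the 11 tested genes of haem uptake, export and breakdown, 3 rose and 0 fell, where 11.2% of all tested genes rose. Lrp1, an endocytic receptor whose many ligands include haem bound to haemopexin, had 854, 338 and 811 CPM in KO libraries, against 79.5, 140 and 147 CPM in WT libraries (log2 fold change 2.45, edgeR adjusted p = 0.0250). Hp, haptoglobin, which binds free haemoglobin, had 37.8, 15.3 and 138 CPM in KO libraries, against 8.72, 4.36 and 2.62 CPM in WT libraries (log2 fold change 3.60, edgeR adjusted p = 0.0365), and its log2 fold change was 2.31 without KO replicate 3. Slc48a1, which carries haem out of the phagolysosome of macrophages, had 162, 59.7 and 181 CPM in KO libraries, against 36.4, 30.0 and 29.8 CPM in WT libraries (log2 fold change 2.07, edgeR adjusted p = 0.0273). All 3 had every KO library above every WT library, as had 24.6% of all tested genes. Cd163, the receptor for haptoglobin bound to haemoglobin, had 1.87, 1.03 and 67.1 CPM in KO libraries, against 0.355, 0.256 and 0.298 CPM in WT libraries. Its log2 fold change of 6.24 (edgeR adjusted p = 0.0513) rested on KO replicate 3, without which it was 2.21.

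Of the 10 tested genes of haem synthesis, 1 rose and 0 fell, where 11.2% of all tested genes rose. Alas1, the first enzyme of the pathway outside red cells, had 98.2, 44.1 and 215 CPM in KO libraries, against 33.0, 28.6 and 25.6 CPM in WT libraries (log2 fold change 2.04, edgeR adjusted p = 0.0482), and it missed the threshold with RLE scaling (adjusted p = 0.0560). Without KO replicate 3 its log2 fold change was 1.26. Alad, the next enzyme, had a log2 fold change of -1.10 and did not pass (adjusted p = 0.116). Of the 12 tested genes of NRF2, BACH1 and their targets, 1 rose and 0 fell, beside the same 11.2%. Nfe2l2, which encodes NRF2, an activator of Hmox1 and the ferritin genes, had 155, 81.4 and 167 CPM in KO libraries, against 59.1, 47.8 and 45.7 CPM in WT libraries (log2 fold change 1.40, edgeR adjusted p = 0.0368). Bach1, the haem-sensing repressor of the same genes, had a log2 fold change of 1.14 (adjusted p = 0.0806), and Osgin1 one of 1.76 (adjusted p = 0.0617), and neither passed.

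Of the 11 tested genes of iron-sulphur cluster assembly, 0 passed in either direction, with a median log2 fold change of -0.03. Isca1, a late-acting assembly factor, had a log2 fold change of 1.39 (edgeR adjusted p = 0.0714). Of the 4 tested genes of ferritin turnover and the iron regulatory proteins, 0 passed. Ncoa4, the receptor that takes ferritin to the lysosome, had 68.6, 28.7 and 48.1 CPM in KO libraries, against 4.51, 23.3 and 23.5 CPM in WT libraries (log2 fold change 1.50, adjusted p = 0.142 by edgeR), with WT replicate 1 far below all other libraries. Aco1 and Ireb2, which encode the iron regulatory proteins, had log2 fold changes of -0.46 (adjusted p = 0.261) and -0.27 (adjusted p = 0.501), and Fbxl5, which targets Ireb2 protein for decay, one of 0.21 (adjusted p = 0.627).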

How the data were processed

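For the 6 libraries the authors deposited unnormalised counts of reads for each gene symbol in 1 table, beside exon positions and the merged length of the exons, per the file headers. Per the submitters' processing notes, mm10 was the build and DESeq2 was used. Aligner, counting settings and handling of multi-mapped reads were not given in the sources used here. KO was compared with WT by the two-sided quasi-likelihood F test of edgeR 4.0.16 (R 4.3.3; group as the only term, TMM scaling, filterByExpr defaults). It left 18621 genes holding 99.9% of the counts, and p-values were adjusted over all of them by the Benjamini-Hochberg method with a threshold of 0.05. CPM are on TMM-scaled library sizes, and levels per kilobase divide them by the merged exon length in the table. The SE of a log2 fold change is its absolute value divided by the square root of F. Distances between genes used log2 CPM with a prior count of 2. Identifiers, positions and transcript sequences came from GENCODE M21 on the same build.

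The 10 members and all lists were chosen with earlier results of these data known. Beside the members, the genes named are the 4 of each other iron list with the smallest p or fewer, those past the threshold, the 5 genes nearest to Slc40a1 and to Hmox1 (mean log2 CPM of 1 or more, predicted gene models left out), and defining markers. Hamp, Hamp2, Ltf, Hephl1, Ftmt, Ftl1-ps1 and Slc4a1 were chosen after their values were seen. A few genes that the rule selects are not reported here. No label states that a group's libraries come from different animals, so the p-values cover only the spread among these samples, and that spread may be technical. They name the source as brain and the tissue as a subcutaneous tumour; the tissue was followed. KO and WT columns carry serial numbers from 2 ranges that do not overlap, with no statement of their meaning. Replicate numbers follow accession order and only name a library. Reads carried no molecular identifiers, so the limit of 3 counts covers counting error only. Alternatives were RLE scaling, no composition scaling, no filter and a stricter filter on low counts (CPM of 1 in 3 libraries), a robust fit, DESeq2 1.42.0, limma 3.58.1 (voom, with and without quality weights), and leaving out libraries.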

Additional observations from a re-analysis of the deposited data

How the results depend on the processing

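Higher calls over all tested genes numbered 2083 and lower calls 42. DESeq2 gave 3266 and 1244, limma-voom with quality weights 5531 and 4749, and leaving out KO replicate 2 and WT replicate 1 together 4711 and 4098. Limma-voom without weights gave 988 higher, and lower calls were 24 without composition scaling and 476 without the low-count filter. Leaving out 1 library at a time gave 0 to 4449 higher and 0 to 3629 lower. Of calls, 98.0% were higher, against 72.4% with DESeq2, 53.8% with quality weights and 55.1% without KO replicate 2. For the 71 other iron and haem genes, the 9 higher calls became 17 without the filter, 16 with DESeq2, 4 with limma-voom, 31 with quality weights and 27 without both libraries (0 to 24 leaving out 1), and the 0 lower calls became 2 with DESeq2, 12 with quality weights and 11 without both libraries (0 to 8 leaving out 1). For the 10 members, the 4 higher became 8 without the filter, 8 with DESeq2, 2 with limma-voom, 8 with quality weights and 7 without both libraries (0 to 8 leaving out 1), and the 0 lower became 1 with quality weights. At an unadjusted p under 0.05, 3461 to 4931 genes passed in the 4 fits that called 0. The causes of these differences were not tested.

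Over 15 alternatives the log2 fold change kept its sign for 9 members: 5.49 to 6.47 for Slc40a1, 3.93 to 4.96 for Spic, 1.87 to 3.19 for Hmox1, 1.72 to 2.73 for Slc11a1, 1.48 to 3.12 for Ftl1, 1.32 to 3.04 for Fth1, 1.30 to 2.49 for Blvrb, 0.81 to 1.74 for Cp and -2.27 to -0.31 for Tfrc. For Slc11a2 the range was -0.18 to 0.09, with the sign of the reported value in 12 of 15. Dropping composition scaling moved the median log2 fold change of all genes by -0.13. Bmp6 missed the threshold without composition scaling (edgeR adjusted p = 0.0535) and Alas1 with the robust fit (edgeR adjusted p = 0.0502). No paired analysis was possible because the labels carry no replicate numbers. Hamp, at 0 to 2 counts a library, was not measurable at this depth.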

Other observations

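Genes of iron binding in granulocytes and a second hepcidin gene were too low for the test. Ltf, which encodes the granule protein lactoferrin, had 48, 9 and 44 counts in KO libraries, against 9, 1 and 2 counts in WT libraries. Hamp2, a mouse copy of the hepcidin gene, had 12 counts in KO replicate 3 and 0 in the other 5 libraries. Hephl1, a ferroxidase, and Ftmt, mitochondrial ferritin, had 0 counts in all 6 libraries. The 5 neutrophil markers summed to 147, 42.2 and 192 CPM in KO libraries, against 12.3, 14.5 and 13.8 CPM in WT libraries. Csf3r, which encodes the G-CSF receptor, made up most of these sums, with 146, 40.2 and 114 CPM in KO libraries, against 11.1, 14.1 and 13.4 CPM in WT libraries. Ly6g, a defining neutrophil gene, had 0 counts in the KO libraries, against 0, 0 and 1 counts in the WT libraries. S100a8 had 0.238, 0.968 and 36.1 CPM in KO libraries, against 0.902, 0.370 and 0.327 CPM in WT libraries, so it was high in KO replicate 3 alone.

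Among ferritin copies, Ftl1-ps1 held most of the counts, with 1206, 447 and 1820 in KO libraries, against 522, 264 and 185 in WT libraries. How reads that align to both Ftl1-ps1 and Ftl1 were counted is not given in the sources used here.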
